A study of Homo sapiens with 8 samples.

Results

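The genes described here are 34 well-known targets of p53, listed by symbol. The list was chosen with earlier results of these data known, so the shares of it that were called are descriptive only. 33 of the 34 genes had transcripts in the deposited quantifications and entered the tests, out of 15221 genes tested in all. SESN2 was not analysed here. They were set in 6 groups by the role of their products. These were feedback on p53 (MDM2, MDM4, PPM1D, CCNG1), cell cycle arrest (CDKN1A, BTG2, GADD45A, PLK2, PLK3), apoptosis (BBC3, PMAIP1, BAX, FAS, TNFRSF10B, AEN, TP53I3, TP53INP1, EI24, CYFIP2), survival and growth signals (TRIAP1, PHLDA3, GDF15, KITLG), metabolism, redox and nucleotide supply (SESN1, TIGAR, FDXR, RRM2B, ACER2), and a mixed group of lysosomal, RNA-binding and other products (DRAM1, SUSD6, ZMAT3, RPS27L, TP53I11).

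p53 is a transcription factor that is kept at a low level by MDM2, a ubiquitin ligase whose own gene it switches on, and that accumulates when DNA is damaged. It binds a response element made of a pair of adjacent half-sites and can raise genes that stop the cell cycle, start apoptosis, or repair and protect the cell. Cisplatin forms platinum adducts on DNA and is a known activator of p53. In cells infected with a high-risk human papillomavirus (HPV), the viral E6 protein directs p53 to degradation.

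The study asked whether R-loops, which are DNA/RNA hybrids, change once squamous carcinoma cells of the head and neck have become resistant to cisplatin. RNA sequencing served there to look for differences over the transcriptome and to check the clones as a model of resistance. The HPV- line was UPCISCC89 and the HPV+ line UDSCC2. Each gave a parental group and a resistant group of 2 libraries, 8 in all, of polyA RNA. Each resistant group came from 1 single-cell clone, picked after months of growth in rising cisplatin, with a higher dose for the HPV+ line, and then kept in medium without the drug. All 4 groups were grown in the same low-glucose medium with fetal bovine serum. A clone is compared with the uncloned line it came from, so resistance, cloning and past exposure cannot be told apart. HPV status and line cannot be told apart either, since there was 1 line of each kind. The labels do not state whether paired libraries were grown as separate cultures. The tests therefore reflect library-to-library spread alone, and that spread may be technical.

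Libraries held 20250246 to 27341284 read pairs, and the log2 levels of all genes correlated at 0.975 to 0.988 (Pearson) between the 2 libraries of a group. The 2 libraries of a group differed beyond sampling noise in all 4 groups. The summed level of 7 squamous epithelial markers was 13721 to 13937 CPM (read pairs scaled to a common library total) in HPV- parental cells and 3216 to 4424 CPM in the other groups, and none of the 7 was under 1 CPM in any group. KRT14, a basal keratin, made much of that difference, at 6547 and 5121 CPM in HPV- parental cells against 221 and 282 CPM in HPV- resistant cells. Of the 7 markers 5 were lower and 2 higher in HPV- resistant than in HPV- parental cells, with log2 fold changes from -4.53 to 1.01. All 3 endothelial markers were under 1 CPM in every group. The 5 leukocyte markers summed to 10.7 to 156 CPM, most of it CD68, and 3 of the 5 were under 1 CPM in each group. The 6 fibroblast markers summed to 5.23 to 13.1 CPM in HPV- cells and to 1386 to 3130 CPM in HPV+ cells, and there COL3A1 alone held 1358 to 3079 CPM while COL1A1 stayed at 5.15 to 6.70 CPM. The part of these markers in the results on p53 target genes was not tested.

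Sequence matches to the element that p53 binds are shown first, for some of the genes that had one. Whether p53 binds them in these cells was not tested. The genome (GRCh38) was searched for the p53 response element, 20 bases without a spacer, over 2500 bases on either side of the RefSeq transcription start, a window chosen after the data were seen. The 4 core bases of each half-site, CNNG, are in capitals. The outer C and G were required and up to 2 mismatches were allowed elsewhere, and since the element is its own reverse complement 1 strand covers both. Each sequence is written 5′ to 3′ on the strand of its gene, for the genes that the results below turn on, and for ZMAT3 and PLK2, whose sites had no mismatch.
CDKN1A: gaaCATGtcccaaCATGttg
MDM2: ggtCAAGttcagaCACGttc
AEN: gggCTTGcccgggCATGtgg
BTG2: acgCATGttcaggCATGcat
FAS: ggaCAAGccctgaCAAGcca
GDF15: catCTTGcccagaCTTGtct
ZMAT3: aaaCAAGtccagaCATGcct
PLK2: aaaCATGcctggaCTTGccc
The CDKN1A match (chr6:36676449-36676468, plus strand) began 2265 bases before the RefSeq start and lay across the 5′ end of the annotated gene, and an exon of at least 1 annotated CDKN1A transcript overlaps it. The MDM2 match (chr12:68808923-68808942, plus strand) lay in an intron 751 bases after the start, and the FAS match (chr10:88991309-88991328, plus strand) in an intron of the canonical transcript 511 bases after it, where another FAS transcript has an exon. The AEN match (chr15:88621306-88621325, plus strand) was the closest to a start among those printed, 34 bases before it. The BTG2 (chr1:203303642-203303661, plus strand) and PLK2 (chr5:58462274-58462293, minus strand) matches lay 1877 and 2207 bases upstream, outside the gene. The GDF15 match (chr19:18385308-18385327, plus strand) lay 850 bases before the start, inside the annotated gene and outside its canonical transcript. The ZMAT3 match (chr3:179070188-179070207, minus strand) lay in an intron 1602 bases after the start.

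A match was found for 12 of the 28 p53 target genes with a RefSeq promoter entry (42.9%), and for 419 of the 11359 tested genes with one (3.69%). With no mismatch the counts were 2 target genes (7.14%) and 7 of all genes (0.0616%). Besides those printed, PMAIP1, BAX, ACER2 and CCNG1 had matches, CCNG1 a pair of them. In the narrower window of 250 bases before to 50 after the start, an exact half-site was present in 5 target genes (17.9%), AEN, EI24, FDXR, PLK2 and RPS27L, and in 615 of all genes (5.41%). Within that window AEN alone among the target genes had a match to the whole element (3.57%, against 0.194% of all genes). The genes that changed included ones with no match in the window searched, where the best stretch had 3 mismatches for SUSD6 and DRAM1 and 4 for PLK3, TP53I11, KITLG and CYFIP2. GADD45A, PHLDA3, TNFRSF10B, TP53INP1 and RRM2B had no promoter entry. Response elements are one of the reasons genes are listed as p53 targets, so these shares describe the list and are no result about resistance.

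Levels are compared between genes as TPM, the transcript abundance scaled for depth and length, given as a mean ± SD of 2 libraries. BAX, which permeabilises the outer mitochondrial membrane, had the highest level in both parental groups, 152 ± 6.26 TPM in HPV- and 155 ± 0.0566 TPM in HPV+ cells. In HPV- parental cells the next were RPS27L, a ribosomal protein paralogue, at 132 ± 23.9 TPM and EI24, an endoplasmic reticulum protein, at 84.5 ± 26.0 TPM. In HPV+ parental cells they were CDKN1A, which encodes the cyclin-dependent kinase inhibitor p21, at 136 ± 6.90 TPM and KITLG, the ligand of the receptor KIT, at 86.0 ± 12.1 TPM. The lowest were CYFIP2 in HPV- parental cells (0.487 ± 0.0893 TPM) and ACER2, a ceramidase of the Golgi, in HPV+ parental cells (0.760 ± 0.0858 TPM). Over the 4 groups CDKN1A ran from 9.51 ± 1.79 TPM in HPV- resistant cells through 23.6 ± 2.06 in HPV- parental and 136 ± 6.90 in HPV+ parental to 162 ± 22.9 in HPV+ resistant cells, and MDM2 kept the same order at 7.11 ± 1.28, 9.73 ± 0.580, 22.6 ± 0.993 and 35.3 ± 1.63 TPM. Neither gene passed the test between its 2 HPV+ groups.

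**Figure D1:**
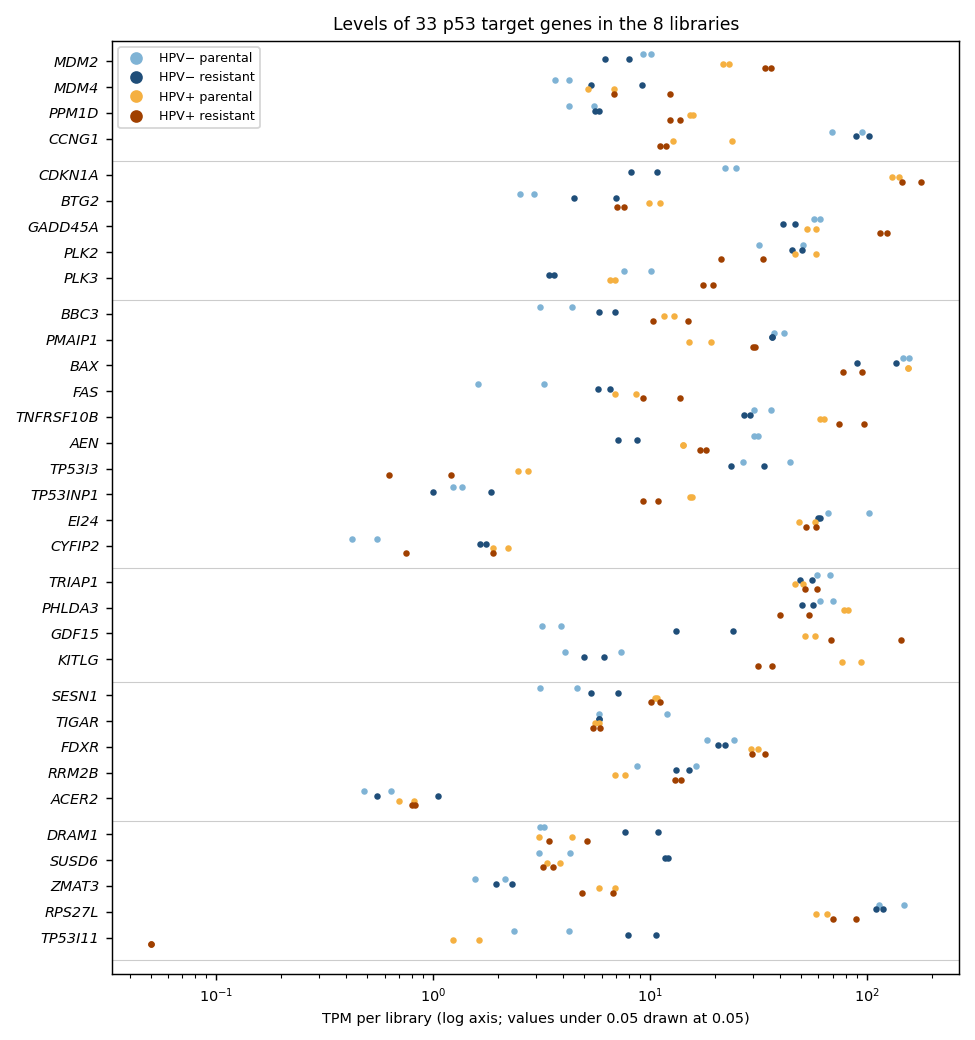
TPM of the 33 measured p53 target genes in each of the 8 libraries on a log axis, with 1 point per library coloured by group and the genes in the 6 role groups, separated by grey lines. CDKN1A and KITLG lie far to the right in HPV+ cells, CCNG1 and TP53I3 in HPV- cells, and TP53I11 drops to the left edge in HPV+ resistant cells.

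A gene is said to have risen or fallen, or to be called, where edgeR's quasi-likelihood test gave an adjusted p under 0.05 (Benjamini-Hochberg over all 15221 genes) and the log2 fold change was beyond 1 in either direction. In HPV- resistant against parental cells 8 of the 33 genes were called (24.2%), against 11.3% of all genes tested. FAS, GDF15, DRAM1, SUSD6 and TP53I11 rose, against 6.06% of all genes, and CDKN1A, PLK3 and AEN fell, against 5.22%. In HPV+ resistant against parental cells 5 were called (15.2%), against 8.0% of all genes. GADD45A and PLK3 rose, against 3.4%, and CYFIP2, KITLG and TP53I11 fell, against 4.6%. The share of all genes called depended on single libraries in both lines. It was lower in HPV+ cells without either HPV+ parental library. In HPV- cells it was lower without the first HPV- parental or the first HPV- resistant library. PLK3 and TP53I11 were called in both lines, each in opposite directions. The share of all genes called in that way is not given here, so this is description only. The listed genes went both ways. In HPV- cells 13 had a log2 fold change above 0 and 20 below, with a median of -0.14 (0.04 over all genes) and a median absolute value of 0.546 (0.449 over all genes). In HPV+ cells 14 were above and 19 below 0, with a median of -0.04 (0.00 over all genes) and a median absolute value of 0.407 (0.381 over all genes). By adjusted p alone 6 of the 33 were higher and 10 lower in HPV- resistant cells, against 26.8% of all genes in either direction, and 4 higher and 7 lower in HPV+ resistant cells, against 18.1%. The 2 resistant libraries lay wholly above or below the 2 parental ones for 23 of the 33 genes in each line (69.7%), against 61.2% and 67.8% of all genes. As these are bulk samples, a change in the share of cells that express a gene and a change in RNA per cell cannot be told apart.

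**Figure D2:**
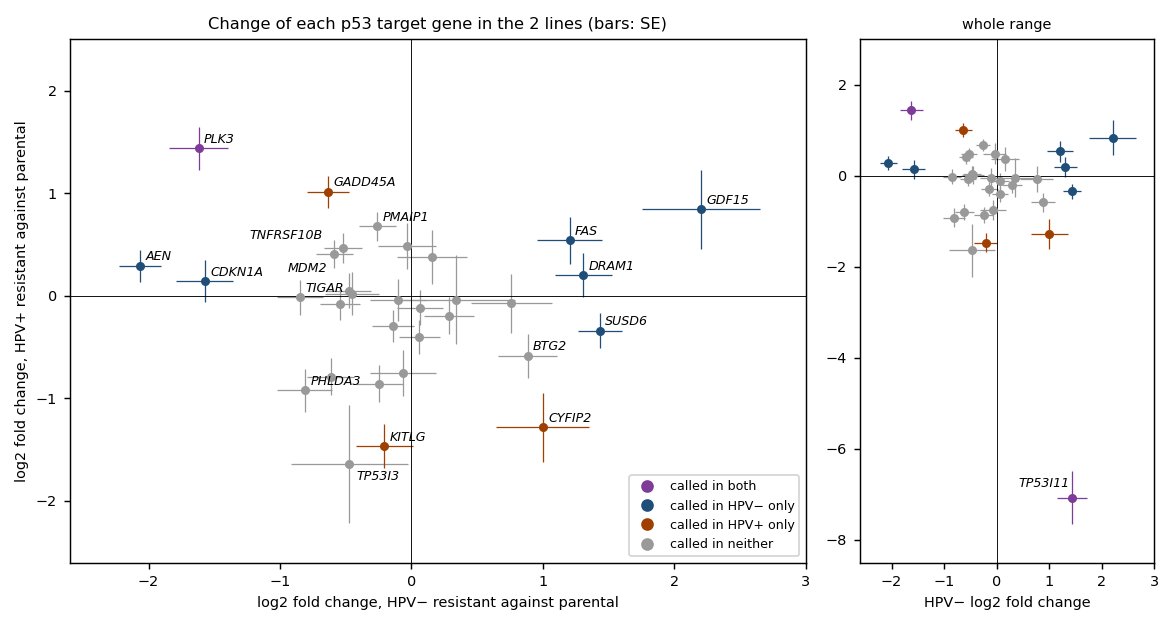
log2 fold change of each of the 33 p53 target genes in HPV- (x axis) and HPV+ (y axis) resistant against parental cells, with bars of 1 SE. The right panel shows the whole range so that TP53I11, at -7.07 in HPV+ cells, can be seen. PLK3 and GADD45A lie at the upper left, and CYFIP2 and TP53I11 at the lower right.

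The change on resistance was then compared between the lines, as the log2 change in HPV+ minus that in HPV- cells. 10 of the 33 genes were called in that difference (30.3%), against 11.7% of all genes. PLK3, AEN, CDKN1A and GADD45A changed more towards higher levels in the HPV+ line (5.17% of all genes did), and TP53I11, CYFIP2, SUSD6, BTG2, KITLG and DRAM1 more towards lower levels (6.57%). This difference uses the same libraries as the comparisons within each line, so it is not separate evidence for either. By adjusted p alone 8 were higher and 6 lower, against 16.7% of all genes. The median absolute difference was 0.832 on the log2 scale over the 33 genes and 0.528 over all genes.

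None of the 4 feedback genes was called in either line. A group of 4 is too small to compare with the shares of all genes called, 11.3% in HPV- and 8.0% in HPV+ cells. MDM2 (chr12:68808177-68845544) was at 42.5 and 49.5 CPM in HPV- parental libraries and 31.7 and 29.6 CPM in resistant ones. The HPV+ line had 104 and 105 CPM in parental and 136 and 141 CPM in resistant libraries. In neither line did the groups overlap. Resistant libraries were the lower ones in the HPV- line and the higher ones in the HPV+ line. The log2 fold change was -0.59 ± 0.14 (SE, adjusted p = 0.0117) in HPV- and 0.41 ± 0.13 (adjusted p = 0.0618) in HPV+ cells, both short of the fold required. Between the lines the change differed by 0.99 ± 0.19, which had an adjusted p of 0.00674 and missed the call by the size of the change alone. MDM4, a relative of MDM2 that blocks the activation domain of p53, PPM1D, a phosphatase that removes activating marks from p53, and CCNG1, cyclin G, were not called in either line, with log2 fold changes from -0.40 to 0.37. Only 4 of 13 annotated PPM1D transcripts were matched, so its level is uncertain.

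Among the cell cycle genes CDKN1A and PLK3 fell in HPV- cells, and PLK3 and GADD45A rose in HPV+ cells. CDKN1A (chr6:36676460-36687337) was at 51.8 and 39.5 CPM in HPV- parental libraries and at 12.0 and 18.6 CPM in HPV- resistant libraries. In the HPV+ line it was at 222 and 221 CPM in parental and at 224 and 265 CPM in resistant libraries. It was thus 2.98-fold lower in HPV- resistant cells, a log2 fold change of -1.57 ± 0.22 (adjusted p = 0.0009), with no overlap. In HPV+ cells the log2 fold change was 0.14 ± 0.20 (adjusted p = 0.669), smaller than its error. The change differed between the lines by 1.72 ± 0.30 (adjusted p = 0.004). Across both lines CDKN1A in HPV- resistant cells was the lowest group and the 2 HPV+ groups the highest.

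PLK3, a polo-like kinase of the stress response, fell in 1 line and rose in the other, and GADD45A, a small protein that acts in growth arrest and DNA repair, rose in the HPV+ line. PLK3 (chr1:44800377-44805990) had 14.8 and 10.3 CPM in HPV- parental and 4.43 and 3.74 CPM in HPV- resistant libraries. In the HPV+ line it had 9.83 and 9.33 CPM in parental and 26.3 and 25.6 CPM in resistant libraries. The parental levels of the lines were close and the resistant levels far apart, 3.07-fold below the parental level in HPV- (adjusted p = 0.00086) and 2.71-fold above it in HPV+ cells (adjusted p = 0.00184). Its difference between the lines, 3.06 ± 0.31 on the log2 scale (adjusted p = 0.000212), was the largest of the genes that rose more in the HPV+ line. GADD45A (chr1:67685201-67688334) had 71.3 and 57.2 CPM in the HPV- parental line, 38.1 and 44.5 CPM in its clone, 55.5 and 48.7 CPM in the HPV+ parental line and 102 and 109 CPM in its clone. It rose 2.02-fold in HPV+ cells (log2 1.02 ± 0.16, adjusted p = 0.00242), just past the fold required, and without HPV+ parental replicate 2 or HPV+ resistant replicate 2 its log2 fold change was 0.92 or 0.96 and it was not called. In HPV- cells it was at -0.64 ± 0.16 (adjusted p = 0.0147), short of the fold required.

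For BTG2, an antiproliferative factor, the difference between the lines had the opposite sign to those above. BTG2 (chr1:203305491-203309602) had 7.16 and 7.08 CPM in the HPV- parental line, 16.0 and 10.3 CPM in its clone, 23.0 and 22.9 CPM in the HPV+ parental line and 16.0 and 14.6 CPM in its clone. It was not called in either line, with 0.88 ± 0.22 in HPV- (adjusted p = 0.0156) and -0.58 ± 0.21 in HPV+ cells (adjusted p = 0.0841). The difference of -1.47 ± 0.31 was called (adjusted p = 0.00975), and without HPV+ parental replicate 1 its adjusted p was 0.0555. PLK2, a kinase related to PLK3, did not follow it, with -0.25 ± 0.18 in HPV- and -0.86 ± 0.18 in HPV+ cells, neither past the fold required. Of the 5 genes of this group, 2 fell in HPV- cells, where 5.22% of all genes did, and 2 rose in HPV+ cells, where 3.4% did, and a group of 5 is too small to compare with these shares.

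**Figure D3:**
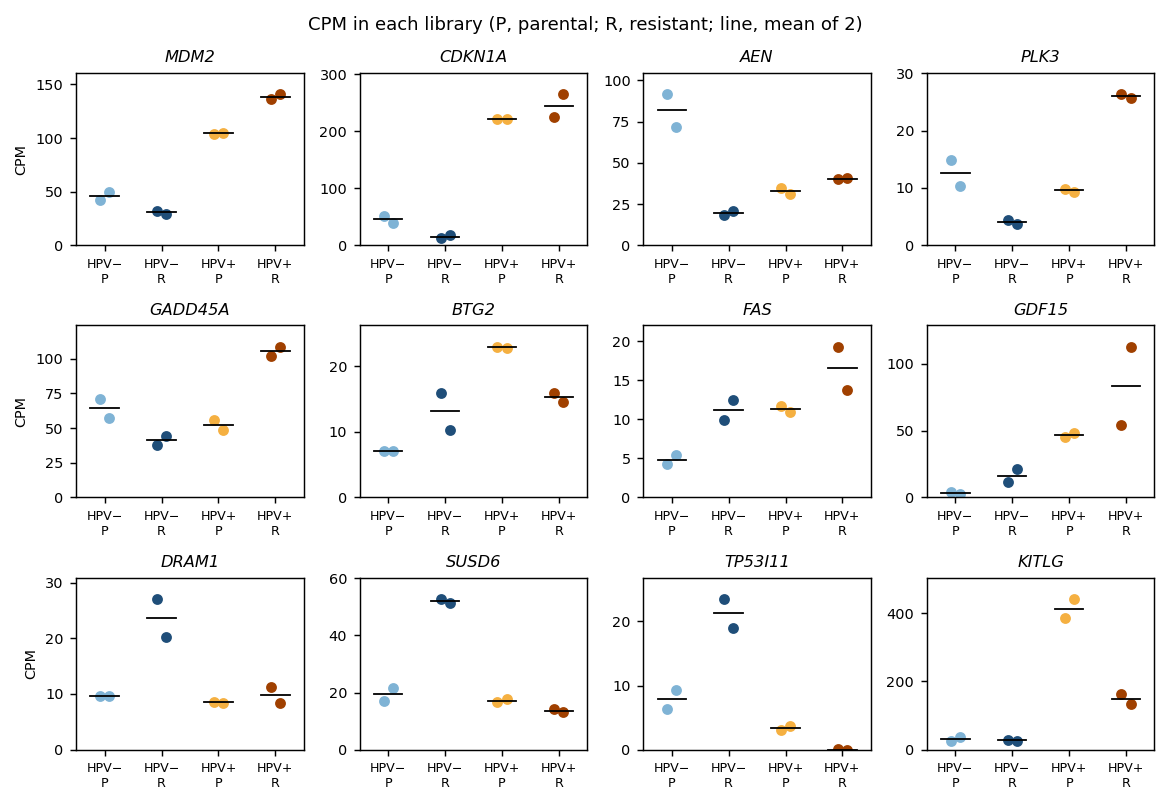
CPM of 12 p53 target genes in each of the 8 libraries, with 1 point per library and a line at the mean of 2, on axes that start at 0. PLK3 and GADD45A are lowest in HPV- resistant and highest in HPV+ resistant cells, while KITLG, CDKN1A and MDM2 are far higher in both HPV+ groups than in the HPV- ones.

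Of the 10 apoptosis genes, AEN and FAS were called in HPV- and CYFIP2 in HPV+ cells. AEN (chr15:88621337-88632281), an exonuclease that p53 induces during apoptosis, had 91.5 and 72.0 CPM in HPV- parental and 18.4 and 20.6 CPM in HPV- resistant libraries. It had 34.5 and 31.3 CPM in HPV+ parental and 40.0 and 40.6 CPM in HPV+ resistant libraries. The fall in HPV- cells was 4.19-fold (log2 -2.07 ± 0.16, adjusted p = 4.0e-05), the largest fall of any listed gene in that line. In HPV+ cells AEN was at 0.29 ± 0.16 (adjusted p = 0.218), and the difference between the lines was 2.36 ± 0.22 (adjusted p = 0.000151).

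FAS (chr10:88953813-89029605), the death receptor, had 4.27 and 5.41 CPM in the HPV- parental line, 9.92 and 12.4 CPM in its clone, 11.8 and 11.0 CPM in the HPV+ parental line and 19.3 and 13.8 CPM in its clone. Resistant libraries lay above parental ones in both lines. The rise was 2.30-fold in HPV- cells (adjusted p = 0.00576), and the log2 fold change of 0.54 ± 0.23 in HPV+ cells did not pass (adjusted p = 0.134). Nor did the difference between the lines, -0.66 ± 0.33, pass (adjusted p = 0.209). The level of FAS is uncertain, because 20 of its 61 annotated transcripts were matched and the one with most reads has no defined coding sequence.

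CYFIP2 (chr5:157266079-157395595), part of the WAVE complex that regulates actin, rested on few reads, with 24 to 208 read pairs per library. It had 1.28 and 2.25 CPM in the HPV- parental line, 3.12 and 3.99 CPM in its clone, 6.64 and 7.85 CPM in the HPV+ parental line and 3.01 and 2.94 CPM in its clone. The fall in HPV+ cells was 2.43-fold (log2 -1.28 ± 0.33, adjusted p = 0.0255), and the difference between the lines was -2.28 ± 0.48 (adjusted p = 0.0102). The fall did not pass when any 1 of the 4 HPV+ libraries was left out, with log2 fold changes from -1.16 to -1.41, nor with an offset for transcript length, where it was -0.73. Without HPV+ parental replicate 2 the difference between the lines had an adjusted p of 0.0547.

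The other apoptosis genes were not called. The BH3-only genes BBC3 (PUMA) and PMAIP1 (NOXA) had log2 fold changes of 0.76 ± 0.31 and -0.26 ± 0.14 in HPV- and of -0.07 ± 0.29 and 0.68 ± 0.14 in HPV+ cells. BAX was lower by about the same amount in both lines, at -0.61 ± 0.18 and -0.79 ± 0.18, and the difference of -0.17 ± 0.25 did not pass. TNFRSF10B, the TRAIL receptor DR5, was at -0.52 ± 0.15 in HPV- and 0.47 ± 0.15 in HPV+ cells, and its difference between the lines, 0.99 ± 0.21, had an adjusted p of 0.00954 and was just short of the fold required. EI24 was at -0.55 ± 0.15 in HPV- and -0.08 ± 0.15 in HPV+ cells.

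TP53I3, an oxidoreductase also called PIG3, and TP53INP1, a cofactor in autophagy and cell death, stood out between the lines rather than on resistance. TP53I3 had 46.6 and 21.9 CPM in the HPV- parental line, 21.5 and 27.8 CPM in its clone, 2.71 and 2.95 CPM in the HPV+ parental line and 1.43 and 0.387 CPM in its clone. The 2 libraries of the HPV- parental group and of the HPV+ resistant group differed by over 2 times. Its log2 fold change of -1.64 ± 0.58 in HPV+ cells did not pass (adjusted p = 0.0891). TP53INP1 had 7.64 and 7.17 CPM in the HPV- parental line, 9.17 and 4.99 CPM in its clone, 80.4 and 73.9 CPM in the HPV+ parental line and 49.7 and 41.9 CPM in its clone. It was lower in HPV+ resistant cells by a log2 fold change of -0.75 ± 0.22 (adjusted p = 0.0433), short of the fold required.

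Among the 4 survival and growth signals, GDF15 rose in HPV- cells, where 6.06% of all genes did. KITLG fell in HPV+ cells, where 4.6% did. A group of 4 is too small to compare with these shares. GDF15 (chr19:18374731-18389176), a secreted stress cytokine, had 4.17 and 2.93 CPM in the HPV- parental line, 11.4 and 21.1 CPM in its clone, 45.3 and 48.0 CPM in the HPV+ parental line and 54.4 and 113 CPM in its clone. Resistant libraries were higher in both lines, and the 2 resistant libraries of each line differed widely. The rise in HPV- cells was 4.61-fold (log2 2.20 ± 0.45, adjusted p = 0.0107), and in HPV+ cells the log2 fold change was 0.84 ± 0.38 (adjusted p = 0.172). The HPV- rise did not pass without parental replicate 1 (2.46, adjusted p = 0.101) or parental replicate 2 (1.89, adjusted p = 0.140) of that line. The difference between the lines was -1.36 ± 0.58 (adjusted p = 0.161).

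KITLG (chr12:88492793-88580851) had 24.3 and 37.9 CPM in the HPV- parental line, 29.8 and 24.1 CPM in its clone, 384 and 442 CPM in the HPV+ parental line and 165 and 134 CPM in its clone. It overlapped between the HPV- groups. In HPV+ cells it fell 2.77-fold (log2 -1.47 ± 0.21, adjusted p = 0.00181), and HPV+ resistant cells still lay above both HPV- groups. The difference between the lines, -1.26 ± 0.30 (adjusted p = 0.0186), was not called without HPV- parental replicate 1 (-0.96), HPV- resistant replicate 1 (-1.10), HPV+ parental replicate 2 (-1.16) or HPV+ resistant replicate 2 (-1.12). TRIAP1, an inhibitor of apoptosome formation, and PHLDA3, which restrains AKT, were not called. PHLDA3 was lower in both lines by similar amounts, at -0.81 ± 0.21 and -0.92 ± 0.21, with a difference of -0.11 ± 0.29.

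None of the 5 measured genes of metabolism, redox and nucleotide supply was called in either line. A group of 5 is too small to compare with the shares of all genes called, 11.3% in HPV- and 8.0% in HPV+ cells. TIGAR, which lowers glycolytic flux, came closest to a call. It was at -0.85 ± 0.17 in HPV- cells (adjusted p = 0.00608) and -0.01 ± 0.17 in HPV+ cells. SESN1, a sestrin that restrains mTORC1, FDXR, a mitochondrial reductase, RRM2B, a ribonucleotide reductase subunit, and ACER2 ranged from -0.19 to 0.49 over both lines.

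The mixed group held 3 of the 5 genes that rose in HPV- cells. Of all genes 6.06% rose there, and a group of 5 is too small to compare with that share. DRAM1 (chr12:101877580-102012130), a lysosomal membrane protein that p53 uses to induce autophagy, had 9.56 and 9.60 CPM in the HPV- parental line, 27.1 and 20.3 CPM in its clone, 8.61 and 8.38 CPM in the HPV+ parental line and 11.2 and 8.37 CPM in its clone. HPV- resistant cells alone stood apart from the other 3 groups. The rise there was 2.47-fold (log2 1.31 ± 0.22, adjusted p = 0.00222), against 0.20 ± 0.22 in HPV+ cells. The difference, -1.10 ± 0.30 (adjusted p = 0.0332), lost its call with an offset for transcript length (adjusted p = 0.102). It was also lost without HPV- parental replicate 2 (adjusted p = 0.0632), HPV- resistant replicate 1 (0.115), HPV+ parental replicate 1 (0.135), HPV+ parental replicate 2 (0.100) or HPV+ resistant replicate 2 (0.112).

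SUSD6 (chr14:69611596-69715144), a membrane protein with a sushi domain, showed the same pattern with less spread. It had 17.1 and 21.5 CPM in the HPV- parental line, 52.8 and 51.5 CPM in its clone, 16.5 and 17.8 CPM in the HPV+ parental line and 14.1 and 13.1 CPM in its clone. It rose 2.70-fold in HPV- cells (log2 1.43 ± 0.17, adjusted p = 0.000392) and was at -0.34 ± 0.17 in HPV+ cells. The difference between the lines was -1.77 ± 0.24 (adjusted p = 0.00105).

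TP53I11 (chr11:44885903-44951306), a membrane protein of the endoplasmic reticulum also called PIG11, made the widest split. It had 6.36 and 9.29 CPM in HPV- parental and 23.5 and 19.0 CPM in HPV- resistant libraries, and 3.10 and 3.62 CPM in HPV+ parental libraries. HPV+ resistant libraries held 1 read pair and 0 read pairs, against 175 in the 2 HPV+ parental libraries together. The ratio of parental to resistant level in HPV+ cells was 172, with an exact 95% interval of 30.5 to 6830 that covers counting error only. The rise in HPV- cells was 2.71-fold (log2 1.44 ± 0.28, adjusted p = 0.00498), and without HPV- resistant replicate 1 its adjusted p was 0.0542. The fall in HPV+ cells had an adjusted p of 9.0e-05, and the difference between the lines was -8.51 ± 0.66 (adjusted p = 5.0e-05), though fitted values for a gene this close to 0 depend on the prior count. ZMAT3, an RNA-binding zinc finger protein, and RPS27L were not called, with log2 fold changes from -0.45 to 0.06.

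Since each resistant group is 1 clone, each called gene was set beside its surroundings, the 10 nearest tested genes on each side along the chromosome. The fall of CDKN1A in HPV- cells stood alone, with a median of -0.01 over its 20 neighbours, none called and none as low. SUSD6 in HPV- cells likewise had none called and none as high, with a median of 0.20. PLK3 (median -0.07, 2 called) and TP53I11 (median 0.11, 3 called) also lay beyond all their neighbours in HPV- cells. AEN had a median of 0.03 with 3 neighbours called and 1 lower than itself, and DRAM1 a median of -0.45 with 3 called and 1 higher. GDF15 had a median of 0.38 with 4 called and 2 higher, and FAS one of 0.52 with 6 called and 6 higher. In HPV+ cells CYFIP2 (median 0.18, 1 called) and TP53I11 (median 0.15, 1 called, at a log2 fold change of -5.54) lay below all their neighbours. PLK3 had a median of 0.02 there with none called and 1 higher. KITLG (median 0.21, 3 called) had 3 neighbours lower than itself, and GADD45A (median 0.15, 3 called) had 3 higher. MDM2, not called in either line, was at -0.59 beside a neighbour median of -0.41 in HPV- cells, and 14 of its 20 neighbours were below 0, as were 46.2% of all genes. In HPV+ cells it was at 0.41 beside a median of 0.36, and 18 of 20 were above 0, as were 49.8% of all genes. The neighbours of MDM2 ran from -2.22 to 0.61 in HPV- and from -0.17 to 1.57 in HPV+ cells. Some other genes not called had lower neighbour medians in HPV- cells, such as TP53INP1 (-0.74) and RRM2B (-0.72). The log2 fold changes of TP53INP1 and RRM2B themselves were -0.06 and -0.04 there. Whether copy number differs between clones and lines was not tested.

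**Figure D4:**
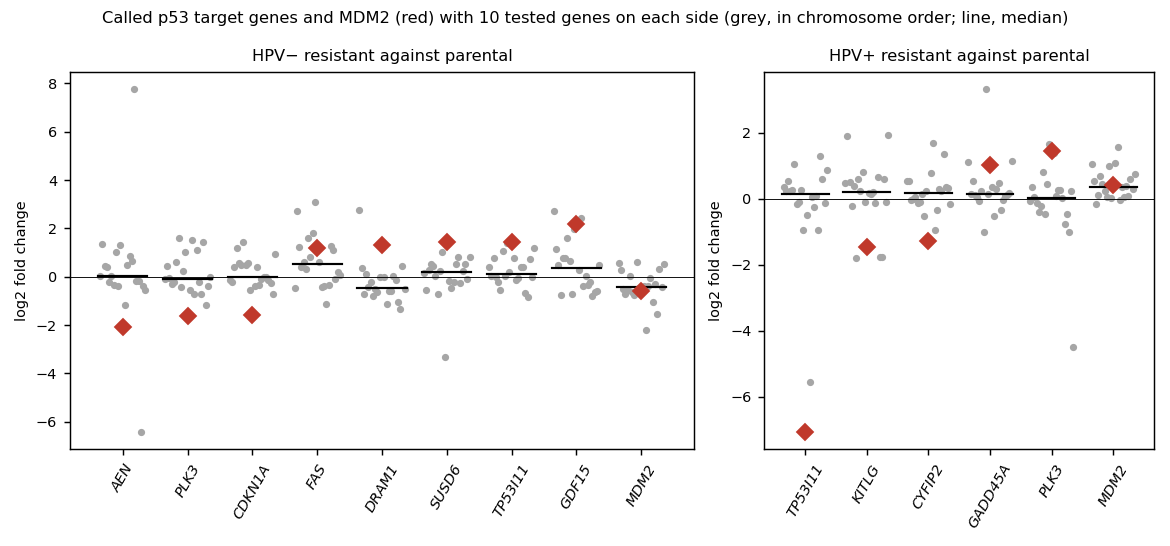
log2 fold change of each called p53 target gene and of MDM2 (red diamonds) with the 10 tested genes on each side in chromosome order (grey points) and their median (black line), in HPV- (left) and HPV+ (right) resistant against parental cells. CDKN1A and PLK3 lie below all their neighbours in HPV- cells, whereas MDM2 lies close to the median of its neighbours in both.

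For 27 of the 33 genes the same transcript held more reads than any other in all 4 groups. Reads were summed over the 2 libraries of a group for this. The leading transcript did not always hold a majority, with 33.1 to 55.3% over the libraries for RPS27L and 14.9 to 70.6% for FAS. It was also not always stable, with 11.8 and 88.8% for TP53INP1 in the 2 HPV- parental libraries. CDKN1A-201 held at least 93.5% of CDKN1A reads, MDM2-202 86.2 to 97.2% of MDM2 reads, AEN-201 89.6 to 94.5% of AEN reads and SUSD6-201 at least 99.4% of SUSD6 reads, all of them protein-coding. The leading transcript differed between groups for MDM4, PPM1D, TP53I3, CYFIP2, TIGAR and TP53I11. For MDM4 it was MDM4-203 in both HPV- groups and MDM4-205 in both HPV+ groups, but the share of MDM4-205 ran from 14.2 to 66.3% between the 2 HPV- resistant libraries, so the split was not stable between libraries of a group. TP53I11-208 held 85.3 to 97.3% of TP53I11 reads in the 6 libraries of the other 3 groups and had none in HPV+ resistant cells.

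More of the listed genes were called between the parental lines than on resistance in either. The same held for all genes, with 37.0% against 11.3% in HPV- and 8.0% in HPV+ cells. 18 of the 33 genes were called between HPV+ and HPV- parental cells (54.5%), against 37.0% of all genes, with 12 higher in the HPV+ line (17.7% of all genes) and 6 lower (19.3%). By adjusted p alone 13 were higher and 10 lower, against 58.0% of all genes in either direction. The parental libraries did not overlap for 28 of the 33 genes (84.8%), against 79.5% of all genes. This comparison uses parental libraries that also serve in the comparisons above. KITLG was 13.3-fold higher in the HPV+ line (log2 3.73 ± 0.24, adjusted p = 5.6e-07), GDF15 13.2-fold (3.72 ± 0.45, adjusted p = 0.00025) and TP53INP1 10.4-fold (3.38 ± 0.25, adjusted p = 1.8e-06). CDKN1A was 4.86-fold higher (2.28 ± 0.22, adjusted p = 9.4e-06) and MDM2 2.27-fold (1.18 ± 0.14, adjusted p = 3.9e-05). PPM1D, BTG2, BBC3, FAS, CYFIP2, SESN1 and ZMAT3 were also higher, with log2 differences from 1.23 to 2.02. Lower in the HPV+ line were TP53I3, by 12.1-fold (-3.59 ± 0.51, adjusted p = 0.000485), and CCNG1, by 7.48-fold (-2.90 ± 0.17, adjusted p = 3.1e-07). AEN, PMAIP1, RPS27L and TP53I11 were lower too, at -1.31, -1.30, -1.22 and -1.22.

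**Figure D5:**
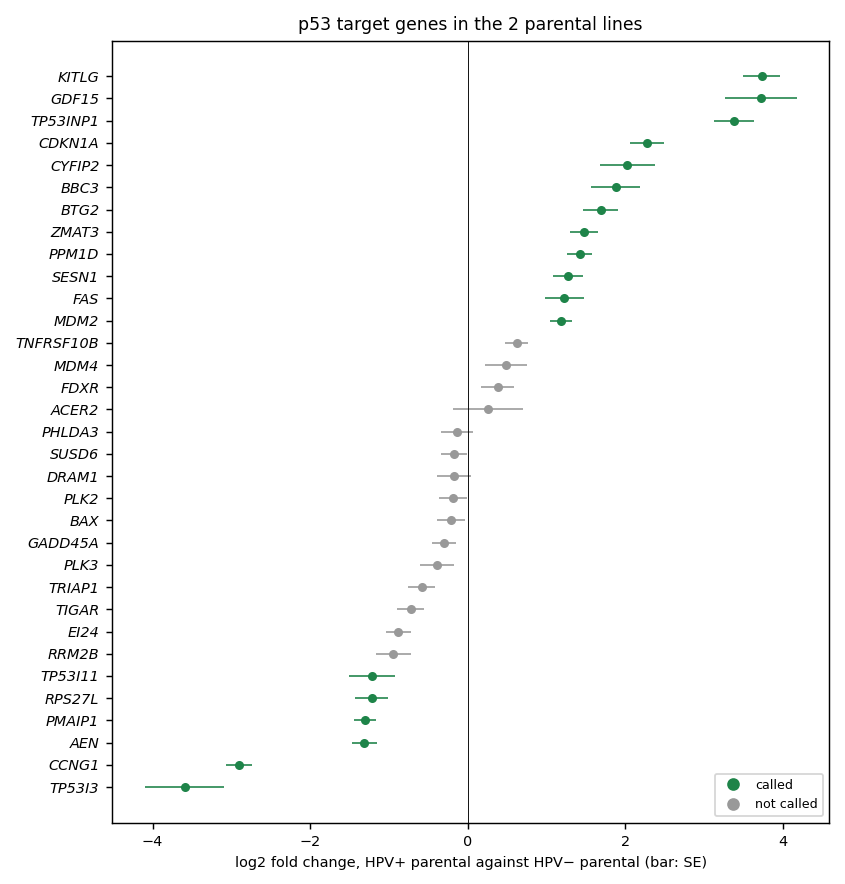
log2 fold change of each of the 33 p53 target genes between HPV+ and HPV- parental cells, with bars of 1 SE, called genes in green and others in grey. KITLG, GDF15 and TP53INP1 lie above 3 and TP53I3 below -3, with called genes on both sides of 0.

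Other genes of the pathway were described with lists drawn up beside the 33. These lists too were chosen with earlier results of these data known, so the shares called are descriptive only. Of 44 tested further p53 target genes, 8 rose and 5 fell in HPV- cells (29.5% called, against 11.3% of all genes, median log2 fold change 0.20), and 7 rose and 2 fell in HPV+ cells (20.5%, against 8.0%, median 0.08). ATF3, a transcription factor of the stress response, fell from 4.33 and 2.93 CPM to 1.21 and 0.897 CPM in HPV- cells and rose from 18.9 and 17.7 CPM to 89.5 and 106 CPM in HPV+ cells, a difference of 4.19 ± 0.33 on the log2 scale (adjusted p = 5.6e-05). TGFA, a ligand of the EGF receptor, also fell in HPV- (-1.15 ± 0.17) and rose in HPV+ cells (1.12 ± 0.20). ORAI3, a subunit of a calcium channel, went the other way, from 16.1 and 14.6 CPM to 65.3 and 72.1 CPM in HPV- cells and from 14.1 and 18.3 CPM to 7.61 and 5.77 CPM in HPV+ cells, a difference of -3.44 ± 0.28 (adjusted p = 7.0e-05). NINJ1, which acts in plasma membrane rupture, and TM7SF3 rose in HPV- cells by 1.69 ± 0.19 and 1.38 ± 0.14, and SERPINB5, the serpin maspin, fell by 1.23 on the log2 scale. DDIT4, an inhibitor of mTORC1, rose in both lines, by 1.91 ± 0.22 in HPV- and 1.92 ± 0.22 in HPV+ cells, with a difference of 0.01 ± 0.30. FAM210B rose by 1.21 ± 0.14 in HPV+ cells and SERTAD1, which binds CDK4, fell by 1.07 on the log2 scale there.

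Of 30 genes that regulate p53 or belong to its family, 1 rose and 2 fell in HPV- cells (10.0%, against 11.3% of all genes) and 1 fell in HPV+ cells (3.33%, against 8.0%), in neither line above the share over all genes. TP73, a relative of p53 that can bind the same elements, rose from 10.1 and 11.4 CPM to 51.8 and 55.6 CPM in HPV- cells and fell from 61.1 and 60.6 CPM to 26.1 and 24.1 CPM in HPV+ cells. Its difference between the lines was -3.59 ± 0.20 on the log2 scale (adjusted p = 6.2e-06). CDKN2A, which encodes p16 and the MDM2 inhibitor ARF, fell in HPV- cells (-1.31 ± 0.33, adjusted p = 0.0206) and was at -0.96 ± 0.32 in HPV+ cells (adjusted p = 0.0725). Its 2 HPV- parental libraries were far apart, at 123 and 56.5 CPM. PRMT5, an arginine methyltransferase, fell in HPV- cells (-1.17 ± 0.15).

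Of 18 cell cycle genes that p53 is known to repress through p21, none rose and 3 fell in each line (16.7%, against 5.22% of all genes in HPV- and 4.6% in HPV+ cells). These were CDC25A, CDC20 and E2F1 in HPV- and CENPA, CDC20 and PLK1 in HPV+ cells. By adjusted p alone 12 of them were lower in the HPV- clone (14.1% of all genes were) and 10 in the HPV+ clone (10.5%). In each line 17 of 18 had a log2 fold change below 0, against 46.2% and 48.4% of all genes, with medians of -0.58 and -0.50. CDC20, an activator of the anaphase-promoting complex, had 275 and 234 CPM in HPV- parental and 85.5 and 122 CPM in HPV- resistant libraries, and 239 and 253 CPM in HPV+ parental and 109 and 111 CPM in HPV+ resistant libraries. These are all cell cycle genes and may vary together, so the counts are not of independent genes. CDKN1A, which encodes p21, was lower in HPV- resistant cells and did not pass the test in HPV+ cells. The part of p21 in the falls of these genes was not tested.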

How the data were processed

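PolyA RNA of 8 libraries was sequenced in pairs. The authors ran Salmon against GRCh38 and deposited, per library and transcript, estimated counts (expected read pairs, not scaled for depth) and TPM (scaled for depth and length). Salmon's version and annotation were not given in the sources used here. Here, 172550 of 187432 transcripts (92.1%) were matched to GENCODE release 44, and unmatched ones held 4.33 to 5.13% of read pairs. Estimated counts were summed per gene and rounded, and TPM summed. Genes were tested with edgeR 4.0.16 and limma 3.58.1 in R 4.3.3, by the quasi-likelihood test in its robust form, on all 8 libraries with TMM factors, edgeR's default filter on low counts and 1 coefficient for each group (common dispersion 0.0326, residual degrees of freedom 4). CPM used TMM-scaled library sizes. P-values were two-sided. SE are of log2 fold changes, taken as the absolute log2 fold change divided by the square root of the F statistic of the test. Exact Clopper-Pearson intervals cover counting error only.

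Values in every library are given for genes called on resistance or in its difference between the lines, for MDM2 and CDKN1A, and for the 4 genes with the largest called difference between parental lines. From other lists, up to 3 called genes per direction and line are named by smallest p. Other genes are given by range and counts. The genes and lists were chosen with earlier results of these data known. Alternatives were RLE and upper-quartile factors, DESeq2 1.42.0, 4-library fits, a length offset, other filters, a replicate block, no minimum fold, and leaving out each library. Response elements were searched with Python 3.11.15.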

Additional observations from a re-analysis of the deposited data

Results flagged for a closer look

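The change on resistance differed between the lines, in a test of the difference itself (edgeR's quasi-likelihood interaction, log2 change in HPV+ minus that in HPV- cells), for 10 p53 target genes (30.3%, against 11.7% of all genes). It was higher in the HPV+ line for PLK3 (3.06 ± 0.31, adjusted p = 0.000212), AEN (2.36 ± 0.22, adjusted p = 0.000151), CDKN1A (1.72 ± 0.30, adjusted p = 0.004) and GADD45A (1.65 ± 0.22, adjusted p = 0.00113). It was lower for TP53I11 (-8.51 ± 0.66, adjusted p = 5.0e-05), CYFIP2 (-2.28 ± 0.48, adjusted p = 0.0102), SUSD6 (-1.77 ± 0.24, adjusted p = 0.00105), BTG2 (-1.47 ± 0.31, adjusted p = 0.00975), KITLG (-1.26 ± 0.30, adjusted p = 0.0186) and DRAM1 (-1.10 ± 0.30, adjusted p = 0.0332). Both resistant libraries lay below both parental ones in HPV- cells and above them in HPV+ cells for PLK3, AEN, CDKN1A and GADD45A, and the other way round for TP53I11, CYFIP2, SUSD6 and BTG2. These genes were picked by the difference in the same libraries, so this is no separate support. Libraries did not overlap for 61.2% of all genes in HPV- and 67.8% in HPV+ cells. These shares are for each line alone. The share of all genes apart in opposite directions in both lines is not given here. By adjusted p, CDKN1A, AEN, SUSD6 and BTG2 did not pass within HPV+ cells, nor CYFIP2 within HPV- cells. The difference for TP53I11 rests on 1 read pair in the 2 HPV+ resistant libraries together. Its size is therefore poorly known, which its SE does not show. The calls of the difference for CYFIP2, BTG2, KITLG and DRAM1 were lost under some alternatives, as given above. With 2 libraries per group, no search for single outlying libraries was made.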

How the results depend on the processing

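With no minimum fold change, 16 p53 target genes passed in HPV- cells (6 higher, 10 lower) and 11 in HPV+ cells (4 higher, 7 lower). All other counts of p53 target genes stayed within 1.5 times those reported, and DESeq2 gave 8, 6, 13 and 18 genes called in HPV- cells, HPV+ cells, the difference between the lines and the parental comparison. Leaving out 1 library at a time gave 7 to 9, 4 to 7, 9 to 12 and 17 to 19. Over all genes, fewer than the 1218 reported were called in HPV+ cells when either HPV+ parental replicate was left out. Fewer were also called in HPV- cells without HPV- parental replicate 1 or HPV- resistant replicate 1. Of 517 recomputed values of single genes none changed direction, 23 lost their call and 8 gained one, and these 8 were all of the difference between the lines for MDM2, which ran from 0.94 to 1.18. Without a filter on low counts GDF15 in HPV- cells had an adjusted p of 0.0651. Upper-quartile factors moved the median log2 fold change of all genes in HPV- cells to 0.117.

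Replicate numbers share no stated culture or day, and deviations of same-numbered libraries correlated at -0.074 to 0.142. A fit with the replicate block called 8, 5, 10 and 18 genes, as without it. Depth limits what can be seen of the genes with few read pairs, CYFIP2, ACER2 and TP53I11.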
